A study of Mus musculus with 6 samples.

Results

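The core circadian clock genes are a set of 10 genes whose products form the daily transcription loop of mouse cells. They were chosen by name, and all 10 of the listed genes had at least 1 probe set, among 12393 genes measured. They had 16 probe sets in all, and a probe set is a group of short oligonucleotides on the array that together report 1 or more transcripts. The samples were mouse embryonic fibroblasts (MEFs), cultured from embryonic connective tissue and labelled wild type, in 2 conditions. There were 3 arrays of MEFs after 6 h of starvation and 3 of control MEFs kept in normal growth medium. The labels do not give the nutrients or serum factors that were withdrawn, the time of day of collection, or whether the control medium was renewed when starvation began. The arrays of a group are called biological replicates, with no word on separate cultures, so each p-value reflects the spread among these arrays alone, part or all of which may be technical. With 1 time point, a shift in the phase of the clock and a change in a gene's average level cannot be told apart.

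In the clock, the proteins BMAL1 (encoded by Arntl) and CLOCK, or its relative NPAS2, bind E-box sequences and switch on the Period and Cryptochrome genes, whose products then inhibit them. A second loop runs through REV-ERBα (Nr1d1) and REV-ERBβ (Nr1d2), nuclear receptors that are switched on by the same activators and repress Arntl through ROR elements. Fibroblasts in culture run such a clock cell by cell, with these genes moving in a daily order within a cell, and medium or serum changes are known to shift it. Whether the cells of these cultures shared a phase was not measured.

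Starved fibroblasts had higher levels of both REV-ERB genes, of Per3 and of Cry2, and lower levels of Arntl and Cry1. Clock, Npas2, Per1 and Per2 did not pass the test. Taking the brightest probe set of each gene, 4 of the 10 genes rose, 2 fell and 4 did not pass (limma, Benjamini-Hochberg adjusted p below 0.05 over 20380 named probe sets). Among all genes taken in the same way, 42.0% passed, with 21.3% higher and 20.7% lower. Of the 16 probe sets 6 rose, 2 fell and 8 did not pass, against 40.9% passing among all named probe sets (20.4% higher and 20.5% lower). The groups did not overlap for 9 of the 16, against 52.2% of all named probe sets. Of the 16 probe sets 6 changed by 1 or more on the log2 scale, which is a doubling or more, against 4.16% of all named probe sets. The median absolute difference was 0.46 over the 16 and 0.20 over all named probe sets. These are descriptions, and no test was made over the members as a set.

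Levels are log2 array signals, and a difference is the mean of the starved arrays less that of the control arrays in log2 units, given with its SE. A probe set's signal depends on its oligonucleotides, so levels of different genes are not compared. For scale, the arrays spanned 2.38 to 14.59, and the median SD of a probe set was 0.0795 in control and 0.108 in starved arrays. With 3 arrays against 3 an exact two-sided permutation test cannot go below 0.1, so single calls rest on the limma fit across all probe sets. In RNA from whole cultures, fewer cells that express a gene and less of its RNA per cell cannot be told apart. The cells carried fibroblast transcripts: 11 of 12 fibroblast markers lay at or above the 57.4th percentile of control signals, and Thy1 at the 32.5th. As deposited 8 of these markers rose and 2 fell on their brightest probe sets, where all genes gave 21.3% higher and 20.7% lower. Pdgfra, among those that rose, was called lower on another probe set. The mean level of the 12 markers was 10.8 to 10.9 on the control arrays and 11.05 to 11.07 on the starved arrays. Among markers of other cells, 8 of 10 for macrophages and blood, 6 of 7 for epithelium, 6 of 6 for endothelium and 5 of 8 for muscle and nerve lay below the 40th percentile. The mean level of the blood list was 4.70 to 4.75 in control and 4.57 to 4.75 in starved cells. Its markers ran from the 5.26th percentile (Ptprc) to the 62.2th (Cd14). Among them Cd68 rose by 0.44, while Cd14, Coro1a and Alas2 fell by 0.46, 0.24 and 0.33. The mean level of the endothelial list was 3.80 to 3.85 in control and 3.68 to 3.79 in starved cells. That of the epithelial list was 4.38 to 4.53 and 4.39 to 4.46, although Cdh1 in it rose by 0.91. The part of these markers in the clock gene results was not tested.

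The promoters of 5 of the 6 called genes are shown because letters of the clock's known control elements can be read in them. RefSeq start sites (build GRCm38.p6) were found for 9 of the 10 members, Per2 not among them, and the 250 bases before each start were searched on both strands. Motifs searched were the E-box CACGTG, the related E′-box CACGTT, the D-box TTANGTAA bound by DBP, TEF, HLF and NFIL3, the ROR element core AGGTCA, and the cAMP response element TGACGTCA. Capitals mark the matches, E′-boxes appearing as AACGTG where they lie on the other strand, and each line reads 5′ to 3′ on the gene's own strand and ends at the base before the start.

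Per3 (chr4:151044666-151044915, minus strand): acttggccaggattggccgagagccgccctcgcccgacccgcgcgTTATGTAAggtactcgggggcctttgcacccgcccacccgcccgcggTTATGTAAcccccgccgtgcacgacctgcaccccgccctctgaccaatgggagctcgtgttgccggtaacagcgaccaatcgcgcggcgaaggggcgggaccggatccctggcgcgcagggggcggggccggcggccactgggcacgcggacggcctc

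Cry1 (chr10:85185055-85185304, minus strand): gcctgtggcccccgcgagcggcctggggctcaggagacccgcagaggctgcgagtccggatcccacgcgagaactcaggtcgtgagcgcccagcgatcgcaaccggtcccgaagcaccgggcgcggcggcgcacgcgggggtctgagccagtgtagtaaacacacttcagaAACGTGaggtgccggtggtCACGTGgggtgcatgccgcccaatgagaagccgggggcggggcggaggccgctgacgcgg

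Cry2 (chr2:92434070-92434319, minus strand): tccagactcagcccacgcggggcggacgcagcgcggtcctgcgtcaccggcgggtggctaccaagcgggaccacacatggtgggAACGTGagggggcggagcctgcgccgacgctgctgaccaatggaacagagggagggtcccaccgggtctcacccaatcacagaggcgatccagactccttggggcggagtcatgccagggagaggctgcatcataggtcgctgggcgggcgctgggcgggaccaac

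Nr1d1 (chr11:98775378-98775627, minus strand): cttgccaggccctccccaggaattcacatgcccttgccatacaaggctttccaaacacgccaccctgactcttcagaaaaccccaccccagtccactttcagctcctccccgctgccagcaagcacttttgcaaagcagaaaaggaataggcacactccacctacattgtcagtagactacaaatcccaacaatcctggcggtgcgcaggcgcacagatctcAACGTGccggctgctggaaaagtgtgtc

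Nr1d2 (chr14:18239107-18239356, minus strand): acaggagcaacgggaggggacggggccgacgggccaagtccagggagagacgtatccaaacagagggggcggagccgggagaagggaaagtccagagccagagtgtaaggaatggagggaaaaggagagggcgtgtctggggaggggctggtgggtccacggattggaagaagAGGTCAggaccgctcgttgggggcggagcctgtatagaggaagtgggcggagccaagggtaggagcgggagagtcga

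The Per3 window held 2 D-boxes, the first bases of which lie 205 and 158 bases before the start, whereas 2.06% of 32851 such windows in the genome held any. Cry1 held an E-box 60 and an E′-box 79 bases before its start. Cry2 held an E′-box at 166 bases and Nr1d1 an E′-box at 28 bases. Nr1d2 held a ROR element core at 77 bases. Among all windows 6.02% held an E-box, 3.85% an E′-box, 14.0% a ROR element core and 1.55% a cAMP response element. Among members not called, whose windows are not printed, 1 of the Per1 windows held an E-box at 166 bases and a ROR element core at 137 bases. The other Per1 window held none of these motifs. Of the Clock windows 1 held a ROR element core at 119 bases. Both Arntl windows held none of these letters. A match is a description of the sequence, and no binding was measured here.

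The REV-ERB receptors held the largest rise. On its brighter probe set (1416958_at) Nr1d2 read 8.63, 8.60 and 8.81 on the control arrays and 10.04, 10.05 and 10.28 on the starved arrays. Every starved array lay above every control array, by more than the spread within either group. Nr1d2 thereby rose 2.71-fold (log2 difference 1.44, SE 0.09, limma adjusted p = 5.24e-06), more than 98.7% of all named probe sets changed. Its dimmer probe set (1416959_at) read 5.29, 5.47 and 5.49 in control and 6.07, 6.60 and 7.09 in starved cells, a rise of 1.17 (SE 0.21, adjusted p = 0.00176). The 3 starved arrays were more spread out on this probe set (SD 0.508) than on the brighter one (SD 0.138), but the groups again did not overlap.

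Nr1d1, the receptor that is best known as the repressor of Arntl, had 1 probe set, with readings of 5.66, 5.54 and 5.79 in control and 6.84, 7.16 and 6.90 in starved cells. Its lowest starved array exceeded its highest control array by more than the range within either group. The rise was 2.47-fold (1.30, SE 0.10, adjusted p = 1.66e-05). Nr1d1 lies opposite Thra, a thyroid hormone receptor gene on the other strand whose 3′ end overlaps its own. Both probe sets of Thra, looked up after the Nr1d1 values were seen, were also higher in starved cells (0.63 and 0.44, adjusted p = 0.000388 and 0.000843), and the part of the overlap in the Nr1d1 signal was not tested.

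**Figure D1:**
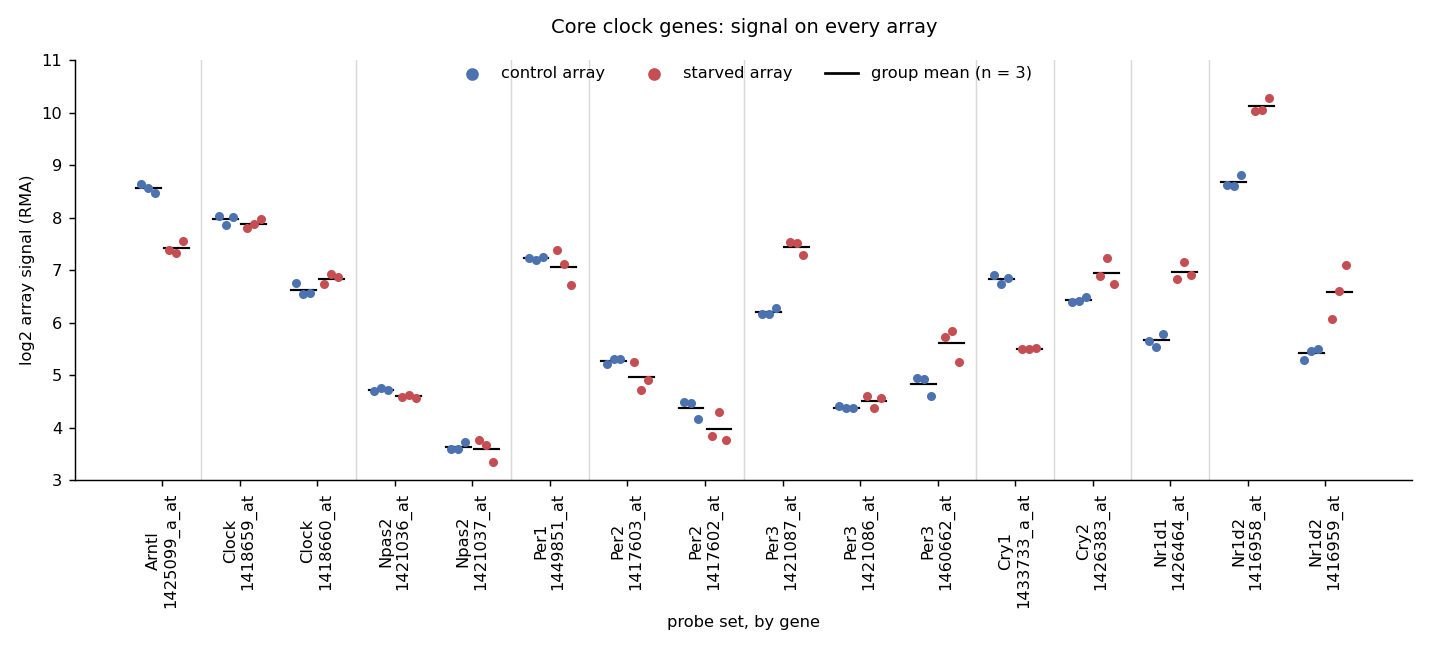
Log2 array signal of every probe set of the 10 core clock genes, with 3 control arrays (blue) and 3 starved arrays (red) for each and a bar at each group mean. The starved arrays lie apart from the control arrays for Arntl and Cry1 below, and for Cry2, Nr1d1, both probe sets of Nr1d2 and 2 of the 3 probe sets of Per3 above; the gap for Npas2 (1421036_at) is small and did not pass the test.

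Among the activators Arntl fell and its partners did not pass. Arntl, which encodes the subunit that the loop cannot run without, read 8.65, 8.57 and 8.47 in control and 7.38, 7.32 and 7.56 in starved cells. Every starved array lay below every control array, by far more than the spread within either group. Its level fell 2.21-fold (−1.14, SE 0.09, adjusted p = 1.35e-05), a larger change than that of 97.2% of named probe sets.

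Clock, the histone acetyltransferase partner of BMAL1, had 2 probe sets that pointed in different directions, and neither passed. The brighter (1418659_at) went from 7.97 ± 0.0974 to 7.89 ± 0.0777 (SD, n = 3 each), a difference of −0.08 with a 95% confidence interval of −0.27 to 0.10 (limma adjusted p = 0.448). The dimmer (1418660_at) went from 6.62 ± 0.108 to 6.84 ± 0.0974, a difference of 0.22 with an interval of 0.03 to 0.41 (adjusted p = 0.069). This rise passed without control replicate 1 (0.28, adjusted p = 0.0469) and without starved replicate 1 (0.27, adjusted p = 0.0376). Npas2, which can replace CLOCK in some tissues, was dim, at the 29.2th percentile of control signals on its brighter probe set and the 13.9th on the other. Its differences were −0.12 (interval −0.27 to 0.03, adjusted p = 0.188) and −0.05 (interval −0.30 to 0.20, adjusted p = 0.756), and the latter lay at 0.075 without starved replicate 3. For the brighter Npas2 probe set the control arrays (4.70, 4.75 and 4.71) all lay above the starved arrays (4.59, 4.63 and 4.57), as groups that do not overlap also occurred for 52.2% of all named probe sets.

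The Period genes, whose proteins carry the inhibitory complex into the nucleus, differed among themselves. Per3 read 6.16, 6.16 and 6.28 in control and 7.53, 7.51 and 7.28 in starved cells on its brightest probe set (1421087_at). That is a 2.36-fold rise (1.24, SE 0.09, adjusted p = 8.97e-06), with all starved arrays above all control arrays. A dimmer probe set (1460662_at) read 4.95, 4.93 and 4.60 in control and 5.72, 5.84 and 5.26 in starved cells and rose by 0.78 (SE 0.16, adjusted p = 0.00323). The dimmest (1421086_at) read 4.38 ± 0.0221 and 4.51 ± 0.119 (SD, n = 3 each) and did not pass (0.13, interval −0.06 to 0.31, limma adjusted p = 0.246). The 3 probe sets of Per3 thus agreed in sign and differed in size, with the smallest difference on the probe set of lowest signal.

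Per1, which responds fastest to hormones and to light in other settings, read 7.24, 7.19 and 7.25 in control and 7.38, 7.11 and 6.71 in starved cells. The starved arrays fell on both sides of the control arrays and were more spread (SD 0.333) than these (SD 0.0316). Its difference was −0.16, with an interval of −0.49 to 0.16 (adjusted p = 0.405), and without starved replicate 3 it was 0.016. Per2, another Period gene that feeds back on the activators, was lower on average on both of its probe sets without passing the test. On 1417603_at it read 5.22, 5.31 and 5.30 in control and 5.25, 4.71 and 4.91 in starved cells (−0.32, SE 0.12, adjusted p = 0.0698). On 1417602_at it read 4.48, 4.47 and 4.16 in control and 3.84, 4.30 and 3.77 in starved cells (−0.40, SE 0.15, adjusted p = 0.0539). In each case 1 starved array lay within the control range, so the groups overlapped. Which arrays entered the fit decided these calls. With 1 array left out, 1417603_at passed without starved replicate 1 (−0.46, adjusted p = 0.00388). The other, 1417602_at, passed without starved replicate 2 (−0.56, adjusted p = 0.00617) or control replicate 3 (−0.50, adjusted p = 0.0349).

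The Cryptochrome genes moved in opposite directions. Cry1, the stronger repressor and the later of the pair in the daily order, read 6.90, 6.74 and 6.85 in control and 5.50, 5.49 and 5.51 in starved cells. The starved arrays were almost identical, and all of them lay below every control array by more than 1 log2 unit. Cry1 fell 2.52-fold (−1.33, SE 0.07, adjusted p = 1.88e-06), the largest fall among the clock genes. Cry2 read 6.40, 6.41 and 6.48 in control and 6.89, 7.24 and 6.73 in starved cells, and rose 1.43-fold (0.52, SE 0.12, adjusted p = 0.00707). Its groups did not overlap, and the starved arrays were more spread (SD 0.260) than the control arrays (SD 0.0429).

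**Figure D2:**
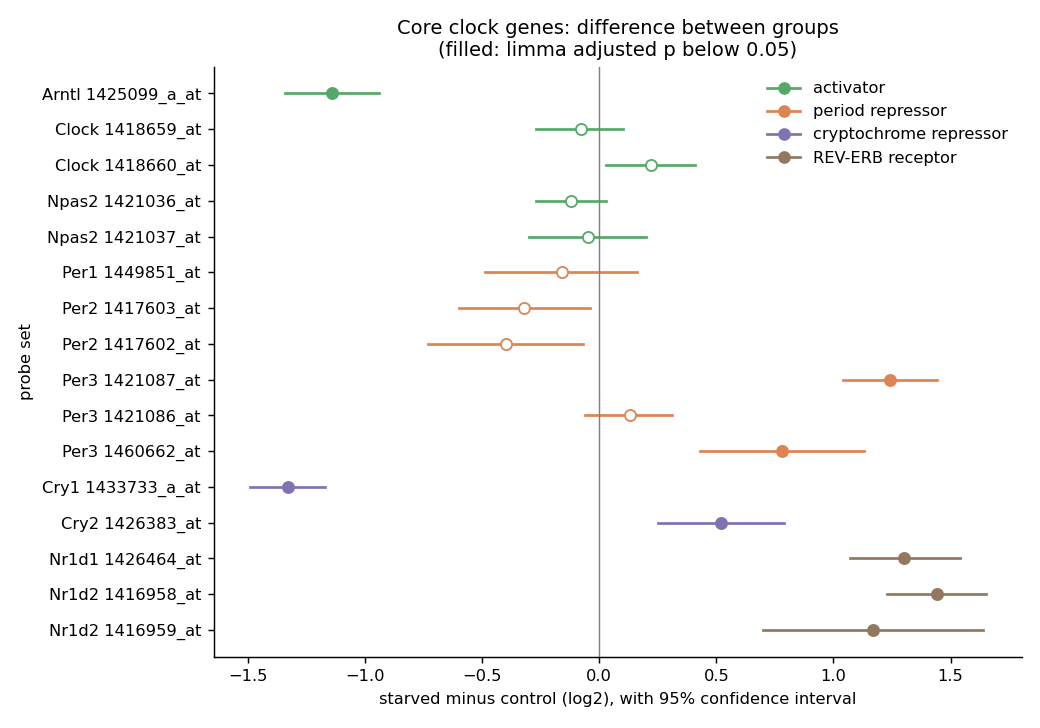
Difference between starved and control arrays (log2) for each of the 16 probe sets, ordered and coloured by the role of the gene, with the 95% confidence interval from limma. Filled points passed the test: Arntl (−1.14) and Cry1 (−1.33) lie to the left, and 2 of the 3 Per3 probe sets, Cry2, Nr1d1 and both Nr1d2 probe sets lie between 0.52 and 1.44 on the right.

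The scaling of the arrays moved all of these differences. The deposited values were quantile normalized before probes were summarised, which sets the same distribution of single-probe signals on each array. After summarising, the array medians still lay between 6.733 and 6.815. Control RNAs that are added to the samples in fixed amounts read higher on the starved arrays, by 0.426 for the poly-A spike-ins (added to the RNA before labelling) and by 0.188 for the hybridization spike-ins (added after it). The part of this shift in the results was not tested. Centring each array on its median called 43.1% of named probe sets (18.2% higher and 24.9% lower), and both probe sets of Per2 then passed as lower (−0.36 and −0.44, adjusted p = 0.0473 and 0.0256). Centring on the poly-A spike-ins moved the median of all named probe sets from −0.045 to −0.471, and centring on the hybridization spike-ins moved it to −0.232. The hybridization centring called 59.5% (12.7% higher and 46.8% lower) and the poly-A centring 80.0% (6.23% higher and 73.8% lower). Under it Nr1d1 (0.88), Nr1d2 (1.01 and 0.75) and Per3 (0.81 and 0.36) were still called higher, and Arntl (−1.57) and Cry1 (−1.76) lower. Cry2 lost its call (0.095, adjusted p = 0.422). Per1 (−0.59), both probe sets of Per2 (−0.74 and −0.83), the brighter probe set of Clock (−0.51) and both of Npas2 (−0.55 and −0.48) were called lower under it. Clock (1418660_at) turned to −0.21 without passing, and the dimmest probe set of Per3 turned to −0.30 and was called lower. The hybridization centring also called lower the brighter probe sets of Clock (−0.27) and Npas2 (−0.31) and both of Per2 (−0.50 and −0.59). A centring shifts every probe set of an array by the same amount.

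**Figure D3:**
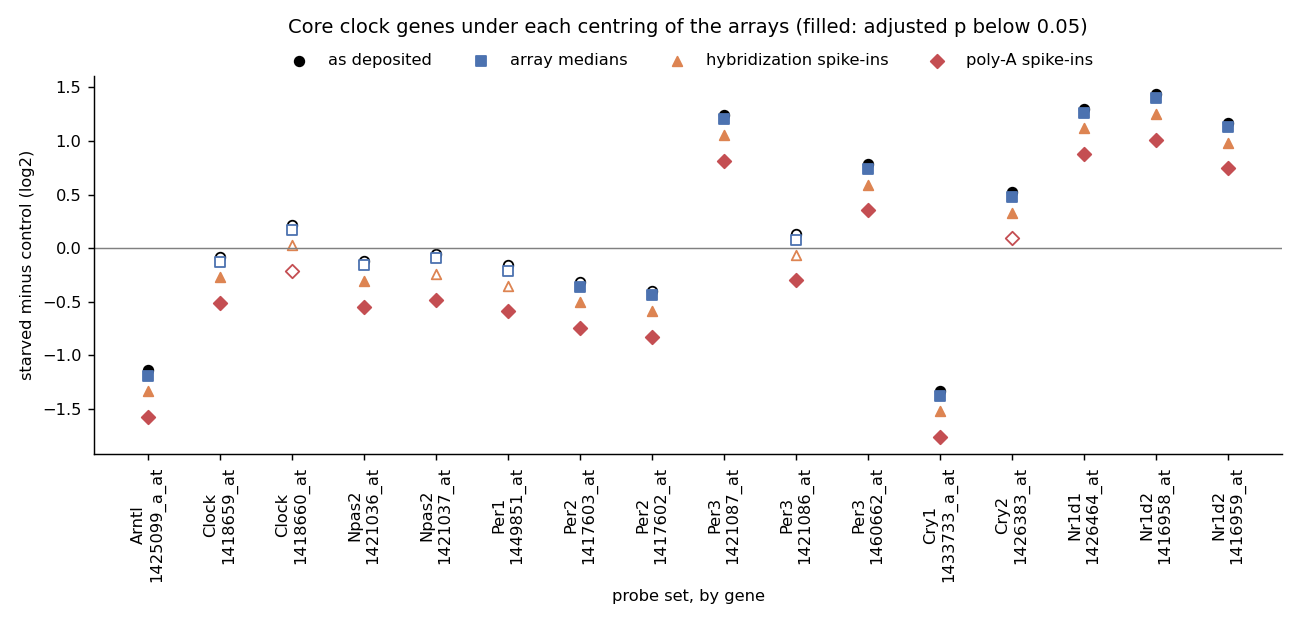
Difference between starved and control arrays (log2) for each probe set with the values as deposited (circles) and with each array centred on its median (squares), the hybridization spike-ins (triangles) or the poly-A spike-ins (diamonds); filled symbols passed an adjusted p of 0.05. Nr1d1, Nr1d2 and 2 Per3 probe sets lie above 0 and Arntl and Cry1 below 0 under all 4, while Cry2 lies at 0.095 with the poly-A spike-ins.

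Gaps between clock genes on the same array do not depend on that centring. These pairs were picked after the values were seen and are given with no test. Relative to its mean on the control arrays, the gap of Cry2 over Cry1 was −0.10 to 0.07 on control arrays and 1.62 to 2.15 on starved arrays. For Nr1d1 over Arntl it was −0.13 to 0.22 and 2.24 to 2.74, the widest of the 6 gaps computed. The gap of Per3 over Per2 rose by 1.56 and that of Per3 over Per1 by 1.40, with no overlap between the groups in either. Clock over Arntl widened by 1.06, so the partners of the activating pair changed unequally. The gap of Nr1d2 over Nr1d1 ran from −0.04 to 0.05 on control arrays and from −0.13 to 0.36 on starved arrays, which overlap, and its mean moved by 0.14.

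**Figure D4:**
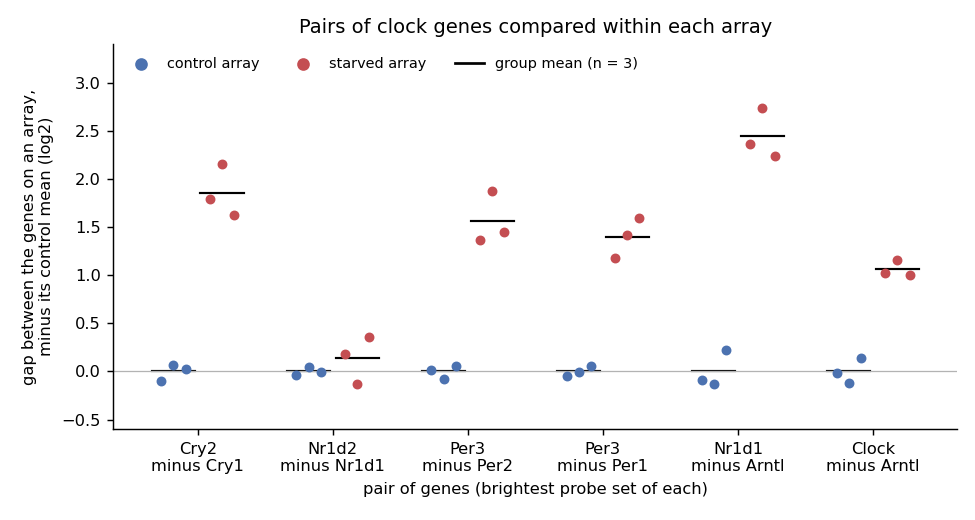
Gap between the log2 signals of named pairs of clock genes on each array (brightest probe set of each gene), minus the mean gap of the control arrays, with 3 control (blue) and 3 starved (red) arrays and a bar at each group mean. The starved arrays stand above the control arrays for 5 of the 6 pairs and overlap them for Nr1d2 and Nr1d1.

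The genes next to the core loop changed on both sides as well. Over 7 lists of clock partners and of targets of related signals 64 genes were measured, 20 of them called higher and 16 lower, with a median difference of 0.03 against −0.048 over all genes. Over all genes 21.3% were called higher and 20.7% lower, 42.0% in all. These counts take the brightest probe set of each gene; of the 28 genes not called on it, 8 were called on another probe set (higher for Csnk2a2, Fbxw7, Lpl and Nono, lower for Crem, Csnk1a1, Klf9 and Nr4a3), which were looked up after the values were seen. All 4 D-box factors passed, in different directions. Dbp, a classic output gene of the clock driven through E-boxes, read 7.44, 7.57 and 7.63 in control and 8.56, 8.57 and 8.40 in starved cells, a rise of 0.96 (SE 0.08, adjusted p = 2.50e-05), and its second probe set rose by 0.68. Its relative Tef rose by 0.63 (SE 0.11, adjusted p = 0.00125), but its other probe sets did not pass (−0.08 and 0.13), and with the poly-A centring its rise of 0.20 did not pass. Hlf, a further activator of this family, fell by 0.91 (SE 0.08, adjusted p = 2.31e-05), and by 0.65 on its other probe set. Nfil3, the repressor at the same D-boxes and a known target of REV-ERB, read 8.92, 8.91 and 8.98 in control and 8.46, 8.40 and 8.24 in starved cells, a fall of 0.56 (adjusted p = 0.000452).

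Among 7 other factors of the loop 1 rose, 3 fell and 3 did not pass, where all genes gave 21.3% higher and 20.7% lower. Rora, which activates the ROR elements that REV-ERB represses, rose by 0.73 (8.20 ± 0.0507 to 8.93 ± 0.0385, SD, n = 3 each, limma adjusted p = 4.61e-05), by 0.70 on another probe set, and did not pass on its dimmest (0.16). Bhlhe40, which encodes the E-box repressor DEC1, read 8.95, 8.94 and 8.86 in control and 7.99, 7.87 and 7.82 in starved cells and so fell 2.03-fold (−1.02, adjusted p = 1.10e-05). Tipin, the partner of Timeless at replication forks, fell by 0.45 (adjusted p = 0.0041). Rorb, dim at the 33.0th percentile of control signals, fell by 0.25 (adjusted p = 0.0177), a call lost without control replicate 2 (adjusted p = 0.0769). In the list of REV-ERB-repressed genes outside the core, Nfil3 was the member that fell. Elovl3 (−0.13) and Lpl (0.12) did not pass on their brightest probe sets, while the other probe set of Lpl rose by 0.24 (limma adjusted p = 0.0379). Elovl3 was dim, at the 14.6th percentile of control signals.

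The 14 measured kinases, ubiquitin ligases and related enzymes that act on the lifetime of clock proteins held 6 that rose and 8 that did not pass on their brightest probe sets, with a median of 0.11. The share called was near the 42.0% of all genes, which split into 21.3% higher and 20.7% lower. On the brightest probe sets of these 14 enzymes 0 fell by limma's adjusted p and 0 at an unadjusted p below 0.05. With the poly-A centring, however, 8 were lower and none higher. A dimmer probe set of Csnk1a1, a casein kinase gene, fell by 0.38 (limma adjusted p = 0.00226). Csnk1d, a casein kinase that phosphorylates PER proteins, rose by 0.41 (adjusted p = 0.00167), Ddb1, a ubiquitin ligase subunit, by 0.47 (adjusted p = 0.00185) and Btrc, the ligase subunit that recognises phosphorylated PER, by 0.46 (adjusted p = 0.00758). The other probe set of Btrc did not pass (−0.21). With the poly-A centring these 3 lay at −0.01, 0.04 and 0.03 and lost their calls.

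Of 13 measured chromatin partners, the test called 5 higher and 3 lower and left 5 uncalled, where all genes gave 21.3% higher and 20.7% lower. Kmt2a, a histone methyltransferase that binds CLOCK, rose by 1.40 (SE 0.20, adjusted p = 0.00053). Ezh2, the Polycomb methyltransferase, rose by 1.06 (adjusted p = 6.74e-06), and the demethylase Kdm5a and the acetyltransferase Kat2b rose by 0.77 and 0.71 (adjusted p = 0.000275 and 6.67e-05). Tbl1xr1, a subunit of the corepressor that REV-ERB recruits, rose by 0.21 on its brightest probe set (adjusted p = 0.0477), but while one of its other probe sets rose by 0.38, another fell by 0.29, and the call was lost on leaving out any array but starved replicate 1, with adjusted p between 0.0528 and 0.142, and the poly-A centring turned it to −0.22 without a call. Sfpq, a PER-binding RNA-processing protein, fell most (−1.49, SE 0.07, adjusted p = 1.26e-06), and also fell by 1.69 and 0.70 on 2 of its dimmer probe sets, with no call on the other 2 (−0.26 and −0.23). Wdr5 fell by 0.39 (adjusted p = 0.00221), though not on its other probe set (0.01). The deacetylase gene Sirt1 fell by 0.27 (adjusted p = 0.0248), a call lost without control replicate 1 (adjusted p = 0.0707), control replicate 3 (adjusted p = 0.0889), starved replicate 1 (adjusted p = 0.0601) or starved replicate 2 (adjusted p = 0.0773).

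**Figure D5:**
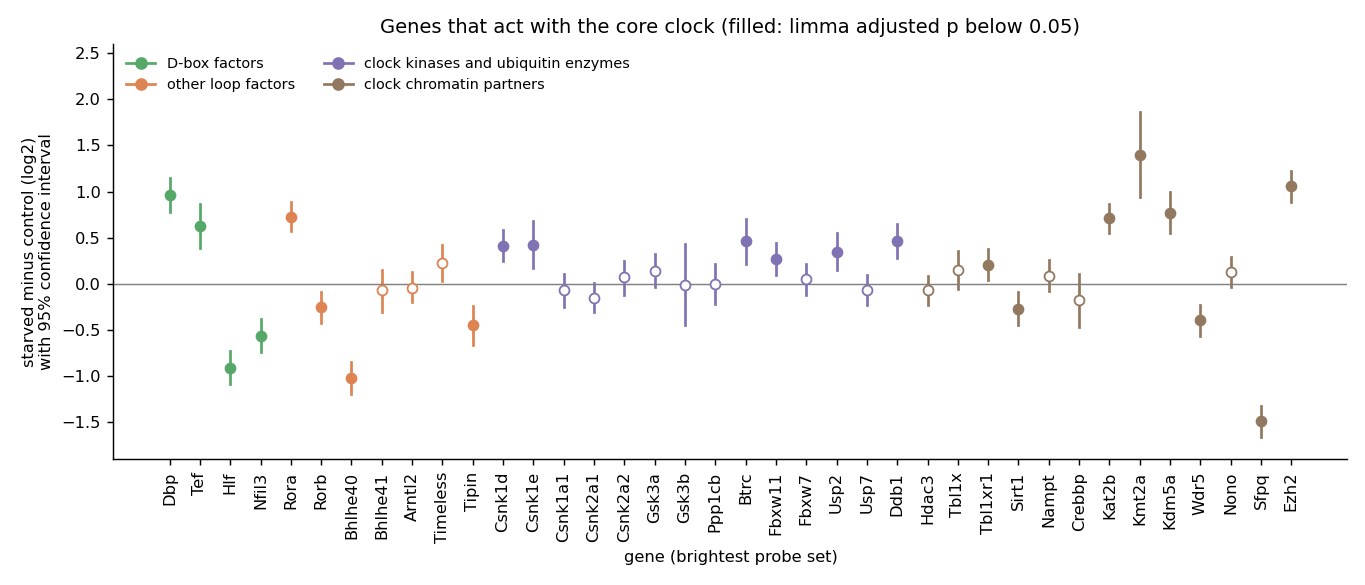
Difference between starved and control arrays (log2, with the 95% confidence interval from limma) for the genes of 4 lists of clock partners, each by its brightest probe set; filled points passed the test. Dbp, Tef and Rora lie above 0 and Hlf, Nfil3 and Bhlhe40 below it, and the 6 kinases and ubiquitin enzymes that passed lie between 0.27 and 0.47, calls that the poly-A centring does not keep.

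Per1 is also a target of glucocorticoid and cAMP signals, and the other targets of these signals held calls in both directions. The 12 glucocorticoid targets had a median of −0.31, with 3 called higher and 6 lower. All genes had a median of −0.048, with 21.3% called higher and 20.7% lower. Errfi1, a feedback inhibitor of growth factor receptors, fell by 1.31, the transcription factor gene Cebpd by 1.18 and the transglutaminase gene Tgm2 by 0.59, while the metallothionein gene Mt2 rose by 1.08, Glul by 0.77 and Nfkbia by 0.35 (adjusted p between 2.34e-06 and 0.00379). With the poly-A centring Nfkbia lay at −0.08 and lost its call. The 12 measured cAMP and CREB targets had a median of 0.04, with 3 called higher and 2 lower, near the 42.0% called over all genes. Gadd45b rose by 1.71 (adjusted p = 5.90e-07), Junb by 0.53 and Egr1 by 0.54, while the phosphodiesterase gene Pde4b fell by 1.08 and Fos by 0.33. Junb and Egr1 lost their calls with the poly-A centring (0.10 and 0.11).

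The profile of each extreme member over the 6 arrays was set beside those of 12115 other genes, each centred on its control mean. Nearest to Nr1d2 by root mean square distance were Mastl, a mitotic kinase gene (0.0606), Scel (0.072) and Helz2 (0.0812), with differences of 1.52, 1.37 and 1.49. Nearest to Cry1 were Ermp1 (0.0267), the sterol enzyme gene Nsdhl (0.0457) and Gmppb (0.0521), with differences of −1.35, −1.34 and −1.32. Over 2 groups this distance measures likeness in the size of the change and in its scatter.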

How the data were processed

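The values the authors deposited are log2 signals, one for each probe set of an array. The submitters' processing notes name affy and RMA without versions. RMA corrects background, normalizes arrays by quantiles and summarises probes, which removes any change in total messenger RNA and compresses folds of dim probe sets. Array medians lay between 6.733 and 6.815. Arrays hold no read depth, so their number limits the precision.

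Probe sets were named by the platform annotation table. Of 22690, 64 were controls, 20380 had 1 gene, 691 several and 1555 none listed, and those with 1 gene were tested, without a filter on dim values. The 2 groups were compared over all 6 arrays by the moderated two-sided test of limma 3.58.1 (R 4.3.3), without covariates. P-values were adjusted by Benjamini-Hochberg over the 20380 probe sets, at a threshold of 0.05. A gene's call is that of its brightest probe set over 6 arrays. The steps were tested on simulated data.

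Named genes are all members, and of each list the called members where a direction held 5 or fewer, otherwise the 3 of that direction with the smallest adjusted p, and the 3 nearest profiles to the largest rise and fall; others were named after their values were seen. Members, lists and pairs were chosen with earlier results of these data known. The exact permutation test over arrays was computed for single probe sets. Values exist for 64 of 76 list genes; the rest are not used here. Alternatives changed the normalization, centring, dim filter, probe sets, moderation, array weights, replicate block, thresholds and arrays. Tables used Python 3.11.15 with pandas 2.3.3, and plots matplotlib 3.10.9.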

Additional observations from a re-analysis of the deposited data

How the results depend on the processing

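Nr1d1, Nr1d2, 2 probe sets of Per3, Arntl and Cry1 kept their direction and their call under each alternative that included them; Arntl and Cry1 have only probe sets named for several transcripts, so leaving those out gave 0 fallen members and 0 fallen member genes by construction. Leaving those probe sets out also gave 2751 higher and 2740 lower probe sets in all, and 12 list genes higher.

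Fallen member probe sets numbered 2 as deposited, 4 with array medians centred, 6 with the hybridization and 9 with the poly-A spike-in centring, and fallen member genes 2, 3, 5 and 6. Over all probe sets the hybridization centring gave 2581 higher and 9548 lower, and the poly-A centring 1269 and 15042; list genes called lower rose from 16 to 27 and 41, and those higher fell from 20 to 9 with the poly-A centring. The brighter and dimmer probe sets of Per2, not called as deposited, were called lower under 5 of 17 and 7 of 16 alternatives. Signs turned for Npas2 (1421037_at) with a further quantile normalization (0.013) and without starved replicate 3 (0.075, the highest of −0.13 to 0.075 over the left-out arrays), for Per1 without starved replicate 3 (0.016, the highest of −0.32 to 0.016), for Clock (1418660_at) with the poly-A centring (−0.21) and for Per3 (1421086_at) with the hybridization (−0.063) and poly-A (−0.30) centrings. An adjusted p below 0.01 left 2680 lower probe sets, and a minimum difference of 0.5 left 2179 higher and 1624 lower, with 12 list genes higher and 8 lower. Leaving out single arrays gave 3478 to 4116 higher and 3255 to 4118 lower probe sets, 6 to 7 and 2 to 3 member probe sets, 4 and 2 to 3 member genes, and 17 to 21 and 15 to 17 list genes. The cause of the counts moved by centring was not tested.

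Replicate numbers are shared by both groups, but same-numbered arrays did not deviate together (correlations −0.048, −0.012 and −0.029). The fit with the replicate block called 3954 higher and 3844 lower probe sets, 6 and 3 member probe sets, the additional fall being that of Per2 (1417602_at, adjusted p = 0.0226), 4 and 2 member genes, and 19 and 16 list genes. Of the 16 member probe sets 8 lay below the 40th percentile of control signals, and 3 of these passed. Over all named probe sets, at any signal level, 40.9% passed, and the share among dim ones was not computed. The part of signal level in the calls was not tested.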
